A study of Mus musculus with 2 samples.

Results

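Replication-dependent histone genes encode the linker histone H1 and the core histones H2A, H2B, H3 and H4 that package newly made DNA. They were taken as all rows of both gene tables whose Ensembl identifier maps to a protein-coding symbol starting with Hist1h, Hist2h, Hist3h or Hist4h, so the rule itself used no measured value. The rule found 67 symbols with a row. Of these, 3 (Hist1h2aj, Hist1h2al and Hist3h2bb-ps) are annotated as pseudogenes and were set aside, which left 64 members among 43346 Ensembl genes. The symbols Hist1h2bh, Hist1h2bm and Hist2h2bb matched no row and were not analysed here. The libraries come from midbrain of healthy B6NCrl mouse embryos, a C57BL/6 substrain, at 15.5 days of development. Replicate 1 pooled midbrains of 78 embryos and replicate 2 those of 62, with males and females mixed in both, and no other tissue, age or treatment was included. Per the labels, RNA longer than 200 nt was kept after mirVana extraction, 10 ng went into a library, spike-in RNA was added, and the linked protocols include the manual of the SMARTer Ultra Low RNA kit. A single value per pool cannot show how embryos differ, and in a whole tissue fewer dividing cells cannot be told apart from less histone RNA per cell.

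Total expected counts were 38966386 for replicate 1 and 40419493 for replicate 2. Members held 15450 and 15445 of them, or 0.0406% and 0.0392% of the counts on Ensembl genes. A count of 0 allows up to 3 counts, which for a gene of 400 nt, about the length of a histone message, equals 0.427 TPM (a level scaled to transcript length and library) in replicate 1 and 0.413 TPM in replicate 2. This floor covers counting error only. Of 7 midbrain markers, 6 were at 1 TPM or more in both libraries, and En2 was at 1.21 and 0.76 TPM. All 8 neuronal and all 8 progenitor markers were expressed, and red blood cell RNA was abundant, with 7 of 8 erythroid markers expressed.

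Histone genes of this kind are transcribed in S phase, when DNA is copied, under the control of the coactivator NPAT. Their messages typically carry no introns and, unlike other messages, no poly(A) tail. The pre-mRNA is cut just after a short stem-loop, which the protein SLBP binds and which the U7 snRNP, a small RNA-protein particle, helps to process. Replication-independent variants such as H3.3 and H2A.Z are made throughout the cell cycle from polyadenylated messages, and neurons that have left the cycle rely on them. The genes are clustered, and many copies encode the same or nearly the same protein.

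The stem-loop is the element that sets these messages apart, so it was looked for in the transcript models of GENCODE M21. It occurred in a transcript of 44 of the 64 members, against 100 of 58728 coding transcripts of other genes (0.170%). A stem-loop past the end of a model cannot be found this way, so a model without one does not show that the gene lacks it. Short models without one include those of Hist1h3i (411 nt) and Hist1h4k (312 nt), the H4 gene without one. The long model of Hist2h2be (2620 nt) had none either. The stem-loop with up to 5 flanking bases on each side is shown, itself in capitals, for the highest member of each class that has one, for Hist3h2a as another of the leading genes, and for 1 member of each other form.
Hist1h2ap: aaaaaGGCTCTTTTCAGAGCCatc
Hist3h2ba: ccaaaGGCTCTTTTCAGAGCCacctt
Hist3h2a: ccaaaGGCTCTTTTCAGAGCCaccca
Hist1h1e: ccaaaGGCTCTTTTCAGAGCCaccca
Hist1h3d: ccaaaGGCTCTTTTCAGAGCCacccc
Hist1h4d: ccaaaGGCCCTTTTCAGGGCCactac
Hist1h4i: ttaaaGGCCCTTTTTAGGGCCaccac
Hist1h2bk: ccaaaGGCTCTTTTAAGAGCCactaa
Hist2h2ac: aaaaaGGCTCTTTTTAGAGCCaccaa
Hist1h4b: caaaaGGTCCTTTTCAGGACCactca
Hist1h3g: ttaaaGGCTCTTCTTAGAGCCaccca
Hist1h4a: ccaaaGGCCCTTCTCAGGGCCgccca
The form of Hist1h2ap, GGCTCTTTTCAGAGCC, was found in 24 members (3 H1, 10 H2A, 6 H2B and 5 H3 genes) and in no H4 gene. H4 genes carried the stem of Hist1h4d instead: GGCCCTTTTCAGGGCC was present in 7 H4 genes and in no member of another class. In all, 12 of 13 H4 genes had a stem-loop, and each of these 12 used a form that no other class had. The loop of Hist1h2bk, with the form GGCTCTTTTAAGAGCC, recurred in 6 members of the H1, H2B and H3 classes.

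Members ranged from listed at 0 to 394 TPM in mean level, and 4 genes carried most of the family's RNA. A member was called expressed at 1 TPM or more in both libraries, which 31 of 64 reached (48.4%), against 62.4% of the 21474 protein-coding genes. The median member stood at 1.24 TPM in replicate 1 and 1.52 TPM in replicate 2, where the median protein-coding gene stood at 5.50 and 5.33 TPM. How far the library kit captured RNA without a tail, which bears on these comparisons, was not tested. Together the members took 0.119% and 0.115% of the TPM of all Ensembl genes. The 4 highest members, Hist1h2ap, Hist3h2ba, Hist3h2a and Hist1h4d, made up 77.7% and 78.2% of the family's TPM.

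**Figure D1:**
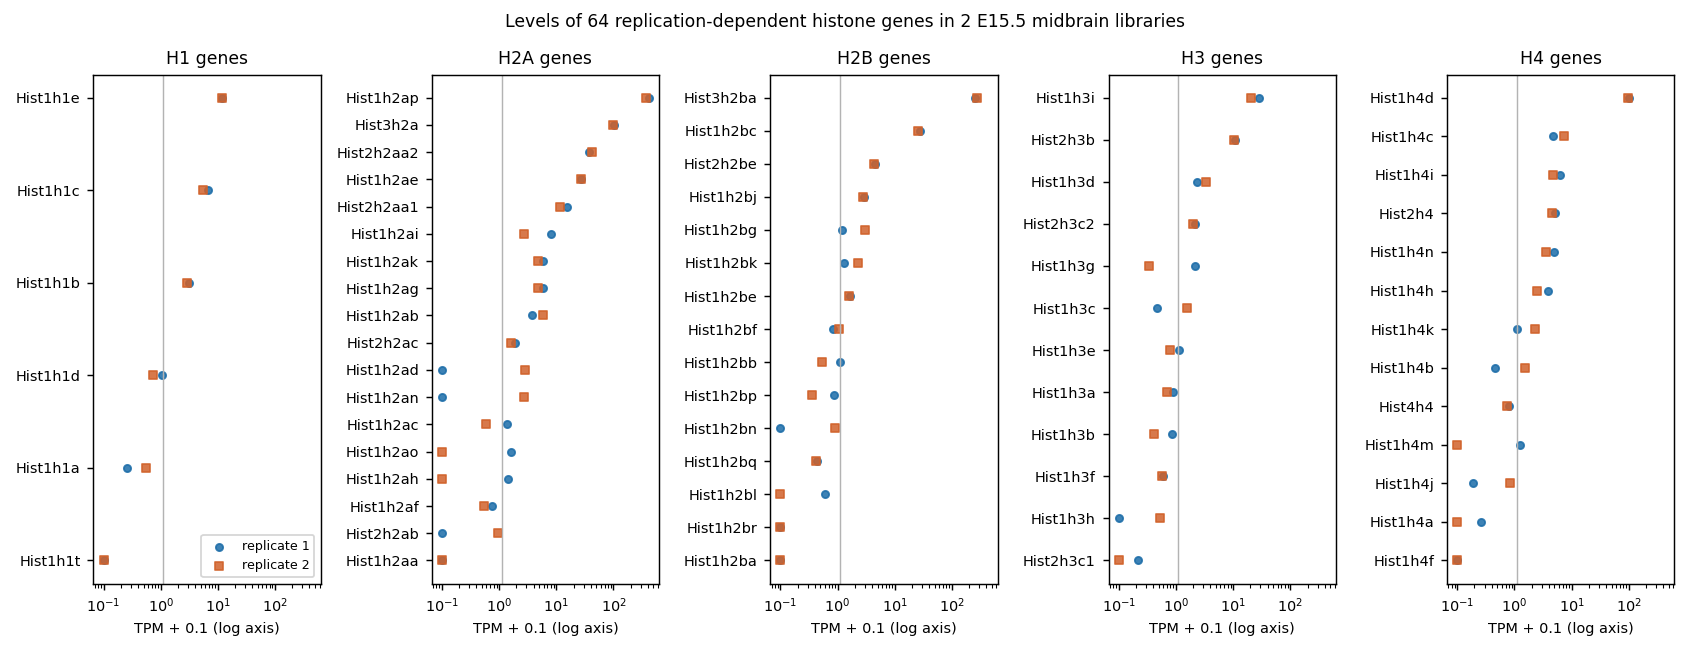
Level of each of the 64 members in TPM plus 0.1 on a log axis, by histone class, with circles for replicate 1, squares for replicate 2 and a grey line at the 1 TPM limit. Hist1h2ap, Hist3h2ba, Hist3h2a and Hist1h4d stand apart from the rest of their classes in both libraries, and members near the limit often lie on different sides of it in the 2 libraries.

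H2A genes, whose protein pairs with H2B in the nucleosome, held 55.7% of the family's TPM in replicate 1 and 53.5% in replicate 2. Of 18 H2A genes, 10 were expressed. The highest, Hist1h2ap (ENSMUSG00000094777.2, 1 model of 482 nt on the minus strand of chr13:21833026-21833507, mm10), was at 414 TPM in replicate 1 and 373 TPM in replicate 2. It was first of the family in both libraries. Hist3h2a (chr11:58954685-58956830) followed at 101 and 98.1 TPM. Its model overlaps Trim17, an E3 ubiquitin ligase gene, on the same strand, which was itself at 1.22 and 1.65 TPM. Hist2h2aa2 was at 37.6 and 42.0 TPM, and its near-copy Hist2h2aa1 on the opposite strand of the same locus at 15.1 and 11.3 TPM. Hist1h2ae came between them at 27.2 and 26.6 TPM. The remaining H2A genes stayed under 10 TPM, led by Hist1h2ai with 7.87 and 2.62 TPM, Hist1h2ak with 5.82 and 4.59 TPM, Hist1h2ag with 5.72 and 4.64 TPM, and Hist1h2ab with 3.66 and 5.68 TPM. Within this last group the order changed between the libraries.

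H2B genes held 26.5% and 29.4% of the family's TPM, nearly all of it from 1 gene. Hist3h2ba (ENSMUSG00000056895.4, chr11:58948920-58949533), which lies next to Hist3h2a, was at 256 TPM in replicate 1 and 275 TPM in replicate 2. Hist1h2bc, the second, was at 27.1 and 25.5 TPM, and Hist2h2be, the third, at 4.42 and 4.15 TPM. The ranges of these 3 genes did not overlap. Of 15 H2B genes 7 were expressed, and the class median was 1.00 and 0.94 TPM. Hist1h2be was the only expressed member with more than 1 listed transcript. ENSMUST00000129312.1 took 80.7% of its level in replicate 1 and 89.8% in replicate 2. The M21 model of this transcript is annotated as a noncoding processed transcript with no stem-loop. Hist1h2be counts as expressed only through it. The other listed transcripts were at 0.30 and 0 TPM (ENSMUST00000051091.3) and at 0 and 0.15 TPM (ENSMUST00000091704.5) in replicates 1 and 2.

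H3 and H4 form the tetramer at the core of the nucleosome, and both classes were low apart from single genes. Among 13 H4 genes, Hist1h4d (ENSMUSG00000061482.6, chr13:23581598-23582735) stood at 100.5 TPM in replicate 1 and 97.0 TPM in replicate 2. This value rests on a deposited model of 393 nt, whereas the M21 model runs on for 770 nt past the stem-loop. The level did not differ from that of Hist3h2a beyond the spread of the 2 libraries. The next H4 genes were far lower: Hist1h4c at 4.60 and 7.16 TPM, Hist1h4i at 6.20 and 4.54 TPM and Hist2h4 at 4.98 and 4.52 TPM, with overlapping ranges. Only 4 of 12 H3 genes were expressed, the lowest share of any class (33.3%). Hist1h3i led with 28.1 TPM in replicate 1 and 20.0 TPM in replicate 2, followed by Hist2h3b with 10.7 and 10.4 TPM. All H3 genes together took 4.34% and 3.68% of the family's TPM, and all H4 genes 11.5% in each library.

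H1 genes encode the linker histone, which binds the DNA between nucleosomes. Of 6 genes, 3 were expressed. Hist1h1e stood at 11.6 and 11.7 TPM, Hist1h1c at 6.63 and 5.46 TPM and Hist1h1b at 3.06 and 2.77 TPM, in this order in both libraries. In M21, Hist1h1e overlaps the long Hist1h2be model on the same strand. The Hist1h1e model has 1930 nt in M21 and 748 nt as deposited, and whether the deposited models overlap was not tested. The testis form Hist1h1t was listed at 0 in both libraries, as were the testis forms Hist1h2aa and Hist1h2ba, and Hist1h4f and Hist1h2br. A further 5 members were listed at 0 in replicate 1 only and 6 in replicate 2 only.

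By position, the small Hist3 locus and the large Hist1 cluster held most of the family's TPM. Their order depends on the measure, as TPM is scaled to transcript length. In expected counts Hist3 (7882 and 8254 in replicates 1 and 2) was above Hist1 (6372 and 6001). The 2 Hist3 members on chromosome 11 held 31.8% of the family's TPM in replicate 1 and 34.6% in replicate 2. The 52 Hist1 members on chromosome 13 held 61.3% and 58.2%, of which 22 were expressed. They lie in 2 blocks, 22 genes between 21715763 and 22043676 and 30 genes between 23531050 and 23934851. Expression was found for 11 members of each block. The 9 Hist2 members on chromosome 3 (96219865 to 96269141) held 6.85% and 7.11% of the TPM, with 7 of 9 expressed. Hist4h4 on chromosome 6, the only Hist4 member, was at 0.71 and 0.63 TPM.

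H2A and H2B genes often lie head to head and share the stretch between their start sites. Such pairs, with at most 500 bp between the genes, numbered 12, all of them 1 H2A and 1 H2B gene, with gaps of 175 to 305 bp. Partners differed widely in some pairs and little in others. Hist1h2ap stood beside Hist1h2br, which was listed at 0 in both libraries. Hist1h2ae, at 27.2 and 26.6 TPM, stood beside Hist1h2bg at 1.11 and 2.94 TPM. In the pair of Hist1h2bc the H2B gene was the higher, and its partner Hist1h2ac was at 1.27 and 0.48 TPM. Hist2h2be was above its partner Hist2h2ac, which was at 1.78 and 1.53 TPM. Hist1h2ag exceeded Hist1h2bj only 2.06-fold in replicate 1 and 1.76-fold in replicate 2. Hist1h2ah and Hist1h2bk were close in replicate 1, at 1.34 and 1.21 TPM, and at 0 and 2.22 TPM in replicate 2. Both genes of the Hist1h2aa and Hist1h2ba pair were listed at 0. Over the 11 pairs with any counts, the H2A gene had the higher mean in 8 and the H2B gene in 3. The order of the partners was the same in both libraries in 7 of 11, and in 4 of the 11 the lower partner was listed at 0 in a library. No test was made over pairs, since several of the genes share reads.

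**Figure D2:**
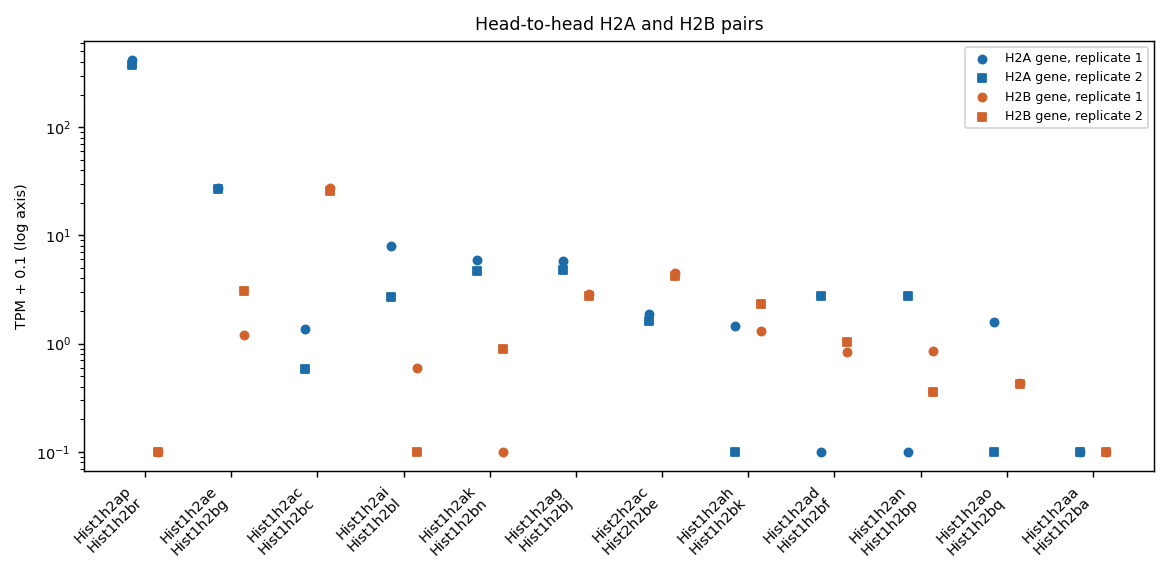
Levels of the partners of the 12 head-to-head pairs in TPM plus 0.1 on a log axis, with the H2A gene in blue, the H2B gene in orange, circles for replicate 1 and squares for replicate 2. The partners of Hist1h2ap, Hist1h2ae and Hist1h2bc lie far below them in both libraries, and the order of low pairs is not stable.

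Promoters of 59 members were found in the RefSeq table (assembly GRCm38.p6), reaching from 250 bases before to 50 after a start, and the first listed start of each member was counted. The 250 bases before the start are shown for the highest H2A, H2B and H1 genes and for Hist1h2ae, whose window overlaps the promoter of its head-to-head partner Hist1h2bg. Capitals mark TATAAA (the TATA box), CCAAT (the CCAAT box), ATTTGCAT (the octamer read by Oct1) and AAACACA (the H1 box), each searched on both strands. The Hist1h2ap window is chr13:21833476-21833725 on the minus strand, the Hist3h2ba window chr11:58948661-58948910 on the plus strand, the Hist1h2ae window chr13:23571221-23571470 on the minus strand and the Hist1h1e window chr13:23622559-23622808 on the minus strand.
Hist1h2ap: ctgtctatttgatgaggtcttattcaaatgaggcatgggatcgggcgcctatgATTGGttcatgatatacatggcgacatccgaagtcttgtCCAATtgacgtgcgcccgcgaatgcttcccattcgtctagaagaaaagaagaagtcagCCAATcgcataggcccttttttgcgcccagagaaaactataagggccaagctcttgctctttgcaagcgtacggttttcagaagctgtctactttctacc
Hist3h2ba: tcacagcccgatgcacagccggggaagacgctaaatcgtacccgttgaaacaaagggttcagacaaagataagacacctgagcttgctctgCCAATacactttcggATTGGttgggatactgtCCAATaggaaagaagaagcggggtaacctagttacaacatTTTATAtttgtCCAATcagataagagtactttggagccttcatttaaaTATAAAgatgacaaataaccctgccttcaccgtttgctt
Hist1h2ae: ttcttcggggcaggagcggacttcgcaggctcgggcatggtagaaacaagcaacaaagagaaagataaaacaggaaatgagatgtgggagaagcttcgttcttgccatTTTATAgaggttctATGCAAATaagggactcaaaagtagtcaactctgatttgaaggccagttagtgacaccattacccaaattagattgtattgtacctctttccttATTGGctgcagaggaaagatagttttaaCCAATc
Hist1h1e: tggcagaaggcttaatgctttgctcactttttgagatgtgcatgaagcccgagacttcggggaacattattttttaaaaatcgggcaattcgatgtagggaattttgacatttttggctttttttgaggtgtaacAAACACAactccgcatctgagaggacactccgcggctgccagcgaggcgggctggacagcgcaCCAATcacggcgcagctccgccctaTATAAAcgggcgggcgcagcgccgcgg
CCAAT was present in 50 of 59 member promoters (84.7%), against 37.4% of all 32851 promoters of the same length. It was found in all 47 H1, H2A, H2B and H3 promoters and in 3 of 12 H4 promoters. In the H3 genes Hist2h3c1 and Hist2h3c2 it lay only in the 50 bases after the start. TATAAA was present in 35 of 59 (59.3%, against 13.6% of all promoters). As both strands were searched, a counted site can be that of a head-to-head partner. The TATAAA marked for Hist1h2ae lies on the other strand and is the same site as in the Hist1h2bg promoter. The octamer occurred in 11 (18.6%, against 1.74%), 7 of them H2A and 4 H2B genes. Of these 11, 8 belong to head-to-head pairs. That share is not particular to the octamer, as 24 of all the H2A and H2B members (18 and 15 genes) lie in such pairs. In 3 pairs both partners were counted for 1 and the same site between them. At its second listed start Hist1h2be had the octamer too, which makes 12 members over all starts. The H1 box occurred in 5 of 6 H1 promoters and in 3 of the other 53, against 7.18% of all promoters. Members with TATAAA had a median of 1.32 TPM and those without it 1.34 TPM. Of the 4 highest members, only Hist3h2a carried the octamer.

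Because copies share reads, each count depends on how reads that match several genes were divided. The deposited tables give 2 estimates, the expected count and the mean of a posterior distribution with its SD. Read assignment was called uncertain where that SD was over 10% of the posterior mean in either library. Among the 35 members that averaged at least 10 counts, 17 were uncertain (48.6%), against 4.99% of all 18269 genes at that depth. The other 29 members had too few counts to be compared. Uncertain members tended to have fewer counts, with a median mean count of 30.0 against 178 for the rest, and they held 8.46% and 8.95% of the family's TPM.

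The leading genes were little affected. Hist1h2ap had 3708 expected and 3686 ± 28.8 posterior counts (posterior SD) in replicate 1, and 3442 and 3413 ± 26.9 in replicate 2. Hist3h2ba and Hist1h4d had posterior SDs under 0.1% of their counts. The duplicated pair Hist2h2aa2 and Hist2h2aa1 was less sure: Hist2h2aa1 had 172 expected and 184 ± 42.4 posterior counts in replicate 1, an SD of 23.0%. Among members that averaged at least 10 counts, the estimates differed by over 1.5-fold for 2. Hist1h2bq had 15.7 expected and 10.4 ± 3.98 posterior counts in replicate 1 and 15.8 and 9.40 ± 4.66 in replicate 2. Hist1h2ad was listed at 0 expected counts in replicate 1, where its posterior mean was 3.39 ± 3.68 counts. Hist1h2br, listed at 0 in both libraries, had posterior means of 6.30 ± 4.10 and 7.56 ± 4.62 counts.

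**Figure D3:**
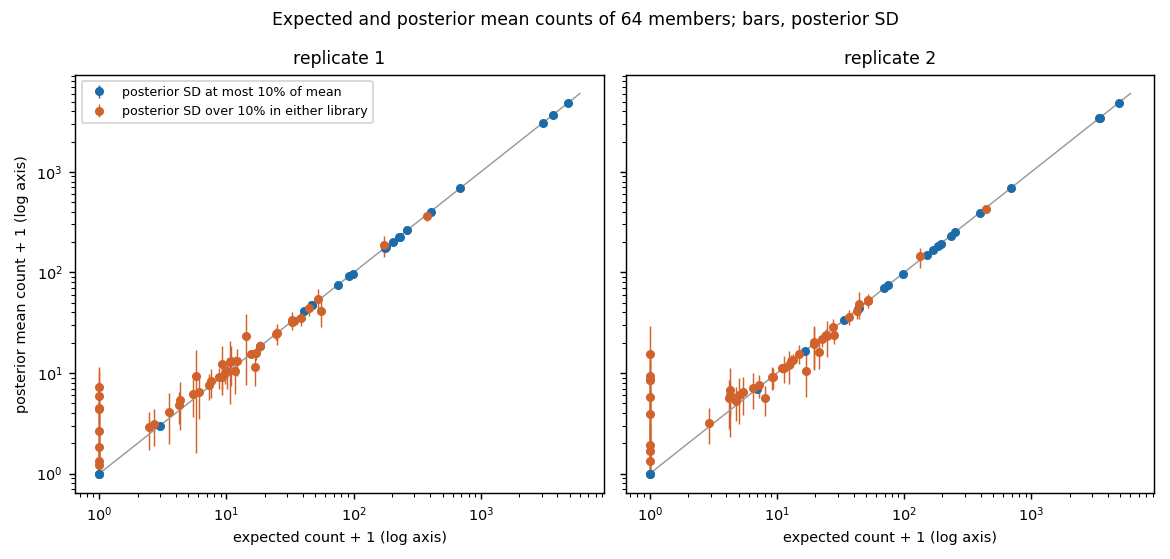
Expected count against posterior mean count for the 64 members in each library, both plus 1 on log axes, with bars for the posterior SD and a grey line of equality. Blue members, with an SD of at most 10% of the mean in both libraries, sit on the line, and orange members scatter around it at low counts or are listed at 0 with a posterior mean above 0.

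How much sequence the members share was measured directly. The deposited effective lengths are 99 nt below the full lengths, so windows of 100 nt were compared between all GENCODE M21 transcripts, for the 42 members with a single model as long as in the deposited tables. In the median member, 41.8% of windows occurred in no other gene. All windows of Hist2h4, Hist2h2be and Hist1h1b were their own, and their posterior SDs were 0. Hist2h2aa1, Hist2h2aa2, Hist2h3b and Hist2h3c1 had no window of their own. Hist1h2ap had only 7.83% and shared the rest with 32 other annotated genes, Hist1h2ao and Hist1h2ah among them. Both strands were searched, and the 32 include opposite-strand miRNA entries without a deposited row, such as Gm44466. Such entries could take no reads in these counts, so the share of own windows can overstate read sharing. Of the 11 compared members with under 50% own windows, 8 were uncertain, of the 8 with 50% to under 100% it was 2, and of the 3 with all windows of their own it was 0.

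**Figure D4:**
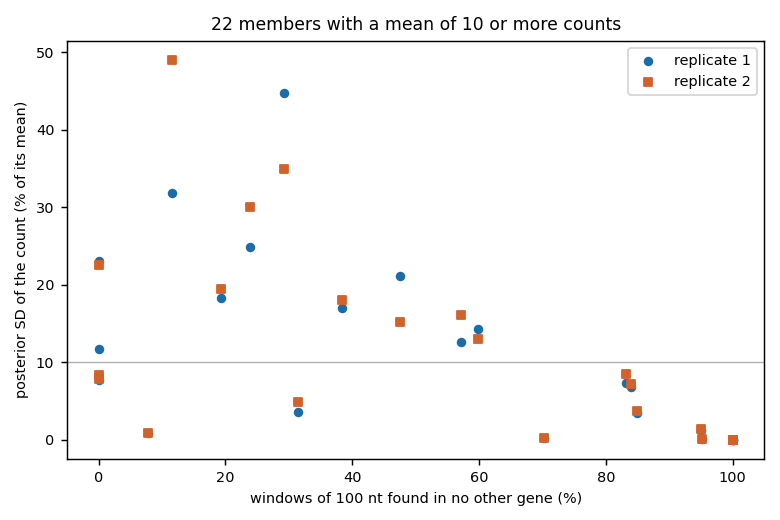
Posterior SD of the count, in percent of its mean, against the share of 100-nt windows that occur in no other gene, for 22 members that averaged at least 10 counts (circles, replicate 1 and squares, replicate 2, with a grey line at 10%). Members with all windows of their own lie at 0%, and all values above 20% belong to members with under 50% own windows, although Hist1h2ap, with 7.83%, lies under 1%.

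Sums over genes that share windows differed little between the 2 estimates. The 16 H2A members linked by shared windows held 4719 and 4459 expected counts in replicates 1 and 2, and 4707 and 4455 posterior counts. For the 10 linked Hist1 H4 genes the expected sums were 212 and 202, with posterior sums of 212 and 202. The 9 Hist1 H3 genes held 291 and 236 by both estimates, 1.27-fold more in replicate 1 after scaling to library size. The 16 linked H2B and H1 genes held 978 and 957 expected counts.

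The 2 pools were compared gene by gene with an exact binomial test on rounded expected counts, a difference counting at an adjusted p under 0.05 and 2-fold or more. The test compares these libraries and not conditions. It takes the rounded counts as observed, so its p covers counting error only. Error in how shared reads were divided is left out, and for members with uncertain assignment the p is too small. Of 35 members tested 3 differed (8.57%), against 1.63% of all 18269 genes, and all 3 had uncertain read assignment. The median log2 ratio of replicate 2 to replicate 1 was -0.11 over the 35 members and 0.00 over all genes tested, and 26 of 35 members were lower in replicate 2. All 18 members with sure assignment stayed within 1.5-fold, with log2 ratios from -0.49 to 0.10. Of the 17 uncertain members 9 did so.

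The H2A gene Hist1h2ai had 54.0 counts in replicate 1 and 18.6 in replicate 2, a log2 ratio of -1.53 (exact binomial test, adjusted p = 0.000309). By posterior means the gap was smaller, 40.8 ± 13.0 against 19.1 ± 9.38 counts. Hist1h2ad went the other way, listed at 0 counts in replicate 1 and 23.5 in replicate 2 (exact binomial test, adjusted p = 3.73e-06). Its posterior means were 3.39 ± 3.68 and 22.5 ± 9.18 counts, 6.42-fold apart after scaling to library size. As its reads are shared with other genes, the listed 0 sets no bound on its level. The H2B gene Hist1h2bg had 9.79 and 26.8 counts (log2 ratio 1.34, exact binomial test, adjusted p = 0.0433), and its posterior means were 12.1 ± 5.65 and 27.5 ± 6.12. It no longer passed when posterior mean counts were tested. Hist1h2ai and Hist1h2ad belong to the 16 linked H2A genes, whose sum was 1.09-fold higher in replicate 1. At any fold, 6 of 35 members had an adjusted p under 0.05, against 19.3% of all genes tested. The additional 3 were Hist1h2ap (log2 ratio -0.15), Hist1h3i (-0.49) and Hist3h2ba (0.10).

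Marker lists of other cells also differed between the pools, and not all in 1 direction. All 10 mitosis genes had log2 ratios below 0, from -0.54 to -0.15, with a summed level of 247 TPM in replicate 1 and 202 TPM in replicate 2. All 8 progenitor markers did so too, from -0.34 to -0.04, with sums of 1624 and 1536 TPM. Erythroid markers were lower in replicate 2 in 8 of 8, summing to 14776 and 11527 TPM. Fibroblast markers were lower in replicate 2 in 5 of 5 (394 and 346 TPM summed), microglial markers in 4 of 5 (120 and 94.2 TPM) and endothelial markers in 4 of 5 (164 and 140 TPM). Neuronal markers ran the other way: 5 of 8 were higher in replicate 2, and the sums were 3615 and 3659 TPM. No marker of these lists was at 0 in either library. Their part in the members' ratios was not tested.

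Where a message model ends was compared with its level for the 42 members with models of equal length in both annotations. In 16, the model ended within 100 nt of the stem-loop (3 to 57 nt after it). A processed message is cut just after the stem-loop, so this group is not restricted to processed ends. Medians of these 16 were 1.64 and 1.88 TPM in replicates 1 and 2, and 9 were expressed. None had AATAAA or ATTAAA, the poly(A) signals, in its last 40 nt. In 10, the model ran on by 108 to 1643 nt, and 8 of these had a poly(A) signal at the end. This group held Hist3h2ba, which runs 169 nt past its stem-loop, and Hist3h2a, which runs 1643 nt past it. Its median was 3.50 and 3.19 TPM, with 6 expressed. The other 16 models held no stem-loop, though some may stop before it, and their medians were 0.84 and 1.53 TPM. With a poly(A) signal the medians were 4.98 and 4.52 TPM (9 members), and without one 1.21 and 1.53 TPM (33 members). Hist1h2ap, the highest member, belongs to the models that end at the stem-loop. These groups overlap widely in level, the models are annotation and not measured ends, and how far the library kit captured RNA without a tail was not tested.

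The replication-independent histones were measured far above the family. Their messages are typically polyadenylated, though this was not checked for each gene. How far the capture of RNA without a tail shaped this gap was not tested. All 11 were expressed, with a median of 237 TPM in replicate 1 and 202 TPM in replicate 2. H3f3a and H3f3b, which encode H3.3, stood at 2487 ± 49.4 and 1702 ± 13.4 TPM (mean ± SD, n = 2), each above the summed level of the whole replication-dependent family (1121 TPM in replicate 1 and 1078 TPM in replicate 2). H2afz for H2A.Z was at 581 ± 19.4 TPM and H2afy2 for macroH2A2 at 259 ± 10.1 TPM. On the log2(TPM + 1) scale the median of this list was 6.73 above that of the members in replicate 1 and 6.34 in replicate 2. Only Hist1h2ap and Hist3h2ba exceeded the list's median in both libraries.

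Genes that make, process and carry histones were expressed throughout. All 17 genes of histone transcription and 3' processing with a row were expressed, led by the stem-loop binding protein gene Slbp (91.1 ± 0.544 TPM), the cap-binding gene Ncbp2 (82.4 ± 1.09), the cleavage factor gene Cstf2t (76.3 ± 0.0919) and the endonuclease gene Cpsf3 (68.9 ± 3.73). All 18 histone chaperone genes were expressed, led in TPM by Tonsl (329 ± 4.74 TPM), Nap1l4 (262 ± 1.46), Atrx (228 ± 13.3) and Rbbp4 (215 ± 4.94). The Tonsl value rests on a short listed length of 934 nt. In counts Tonsl (6483 and 6638 in replicates 1 and 2) lay below Nap1l4 (13404 and 13730). Of 25 DNA replication genes all were expressed, at a median of 22.7 and 20.7 TPM, led by the sliding clamp gene Pcna (77.3 ± 3.06 TPM), the helicase subunit genes Mcm7 (77.0 ± 0.622) and Mcm6 (45.7 ± 4.13), and Gins4 (43.5 ± 0.226). None of these 60 genes, nor any of the 11 independent histones, differed 2-fold between the libraries at an adjusted p under 0.05 by the exact binomial test. At any fold, 7 of the 25 replication genes passed, all lower in replicate 2, against the 19.3% of all genes tested.

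**Figure D5:**
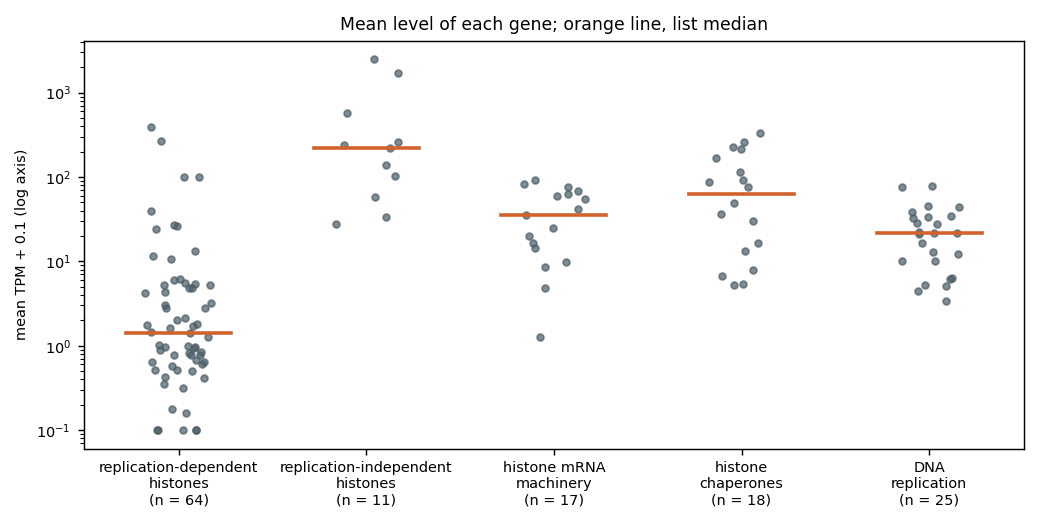
Mean level of each gene in TPM plus 0.1 on a log axis for the 64 replication-dependent histone genes and 4 gene lists, with an orange line at each list's median. The members spread from listed at 0 to 394 TPM around a low median, whereas all genes of the other lists are above 1 TPM.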

How the data were processed

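RNA longer than 200 nt from 2 midbrain pools was sequenced in an assay labelled total RNA-seq; the labels used here do not say whether ribosomal RNA was removed or tailed RNA selected. The authors deposited, per the file headers, expected counts, TPM and posterior means and SDs of the same quantities per gene, and the percent of each gene's level that a transcript takes. Build mm10 and annotation GENCODE M4 are named in notes deposited beside the tables; aligner, counter and strand use: not given in the sources used here. Symbols, biotypes, coordinates and transcripts came from GENCODE M21 on the same build; 42462 of 43346 genes had a symbol. Spike-in rows (96) entered no test. Replicate labels do not say more than that pools were separate. Expected counts were rounded, scaled by TMM (edgeR 4.0.16, R 4.3.3) and compared by a two-sided exact binomial test. Benjamini-Hochberg adjustment ran over genes that averaged at least 10 counts, and 0.5 was added for log2 ratios. A check on simulated data drew counts for each gene separately, with no shared reads. It therefore does not cover members with uncertain read assignment. With 2 libraries the smallest exact sign-flip p is 0.5. DESeq2 1.42.0 size factors and other settings were alternatives. Python 3.11.15, numpy 2.4.6, pandas 2.3.3 and scipy 1.17.1 did the rest. Named were the 20 highest members, those that differed, those whose 2 count estimates differ by over 1.5-fold, those at 0, class leaders and the 4 highest genes of other lists. A few other members illustrate a pair, a stem-loop or shared windows. Members and lists were chosen with earlier results of these data known.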

Additional observations from a re-analysis of the deposited data

How the results depend on the processing

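No paired analysis was possible because there is 1 group, and no library could be left out of the comparison of 2. The number of expressed members was 25 to 36 over thresholds of 2 and 0.5 TPM, 33 by posterior mean TPM, and 35 to 38 when either library was taken alone. The family's share of TPM, 0.117%, was 0.110% over all rows including spike-ins and 0.0399% as a share of counts, and 0.115% to 0.119% with a library left out. The median of 1.38 TPM was 5.16 TPM over expressed members only, and 1.24 to 1.52 TPM with a library left out. Uncertain members numbered 9 at a limit of 20% and 2 of the 16 that averaged at least 50 counts, and 15 to 16 with a library left out. Members that differed between the libraries numbered 3 by DESeq2 size factors, total counts, spike-in counts and a 1.5-fold limit, each time the same 3 genes. There were 8 when all genes with a count were tested (2 of them shared), 0 among genes that averaged at least 50 counts and 6 at any fold. With posterior mean counts there were 3, of which Hist1h2bg was not one. The difference of medians to the independent histones, 6.53 on the log2 scale, was 7.22 with 0.1 added in place of 1, and 6.34 to 6.73 with a library left out. The members' median log2 ratio stayed below 0 in all settings run. Of the 23 members that are among the 20 highest, lead a class, differed between the libraries or had unlike count estimates, none moved by over 1.5-fold in mean level with posterior mean TPM. The 5 listed at 0 had at most 0.22 TPM. Lower members moved more, such as Hist1h2ah, from 1.34 and 0 TPM to 1.76 and 1.14 TPM. GENCODE M21 models differ in length from the deposited ones for 18 of 60 single-transcript members, which limits the window and ending results.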

Other observations

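The 3 annotated histone pseudogenes were also low. Hist1h2aj had 0 and 14.8 expected counts in replicates 1 and 2, where its posterior means were 13.3 and 15.9 counts. Hist3h2bb-ps had 18.5 and 14.2 expected counts, and it shares windows with Hist3h2ba. Hist1h2al was at 0.23 and 0.21 TPM.

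Other RNAs known to lack a poly(A) tail spanned a wide range of levels. They were chosen after their values were seen. The 7SK RNA gene Rn7sk was at 344 and 349 TPM, the RNase P RNA gene Rpph1 at 128 and 109 TPM, the RNase MRP RNA gene Rmrp at 3.24 and 1.66 TPM, and the telomerase RNA gene Terc at 0.92 and 0.38 TPM.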
